A study of Caenorhabditis elegans with 16 samples.

Results

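The *cut* and *cutl* genes are the cuticlins and cuticlin-like genes of *C. elegans*. They were taken as all protein-coding genes of the WBcel235 annotation whose symbol is cut or cutl followed by a number, which gave 35 genes, 6 *cut* and 29 *cutl* genes, among 19983 protein-coding genes with at least 1 GATC fragment. RNA polymerase II occupancy was profiled by Targeted DamID (TaDa) in animals carrying a single-copy transgene, in which the polymerase subunit RPB-6 was fused to the *E. coli* adenine methyltransferase Dam. The groups were seam cells at L4, seam cells at L2, hypodermis at L4 and hypodermis at L2, each with 2 *dam:rpb-6* and 2 *dam:NLS-GFP* control samples, 16 samples in all. The seam cell transgenes were driven by *srf-3i1*, an enhancer from the first intron of *srf-3a* placed before a minimal *pes-10* promoter. The hypodermal transgenes were driven by *dpy-7syn1*, a *dpy-7* promoter whose GATA sites were altered from AGATA to TGATA to lower its activity in seam cells. All animals grew on *dam*-/*dcm*- bacteria and were collected 24 h after seeding at L2 or 48 h after seeding at L4, and each Dam fusion and promoter was represented by 1 strain. DNA was extracted from whole animals, so that more cells with polymerase at a gene and more polymerase per cell cannot be told apart.

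Cuticlins are proteins of the layer of the nematode cuticle that stays insoluble after reducing agents and detergents, where they are joined by tyrosine cross-links. Most of them carry a zona pellucida (ZP) domain, a fold through which secreted proteins polymerise. Seam cells are lateral epidermal cells that divide at each larval stage and lay down the alae, the longitudinal ridges that the cuticle carries at L1, in dauer larvae and in adults. The hypodermis is the surrounding syncytium that secretes most of the cuticle. CUT-1, CUT-3, CUT-5 and CUT-6 are known for their part in alae and body shape at L1 or in dauer larvae, and the adult alae are made over the seam at the end of L4.

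Occupancy is the log2(*dam:rpb-6/dam:NLS-GFP*) value of a gene, averaged over its GATC fragments by the length that each shares with it, so that 0 is the level of the control fusion after normalisation. The score has no absolute unit and read depths are unknown, so that no counting error can be attached to it. Every group had 2 profiles that share no sample, named replicate 1 and replicate 2. The highest of the cuticlin genes was *cut-3*, in hypodermis at L2, and the member with the largest excess of seam cells over hypodermis at L4 was *cutl-27*. To show where those scores lie, the highest scoring GATC fragment of each is printed below in the direction of the gene, together with that of *cutl-23*, the *cutl* gene with the highest occupancy in hypodermis at L2. The capitals mark the GATC sites that bound the fragment.
*cut-3* (II:8445318-8445598, minus strand, exons with an intron): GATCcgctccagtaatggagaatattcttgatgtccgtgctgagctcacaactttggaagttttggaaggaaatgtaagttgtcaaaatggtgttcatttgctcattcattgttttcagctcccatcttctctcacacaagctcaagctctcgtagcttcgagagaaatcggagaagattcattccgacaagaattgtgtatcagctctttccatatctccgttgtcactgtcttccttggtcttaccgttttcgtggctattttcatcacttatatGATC
*cutl-27* (IV:11882255-11882551, plus strand, exons): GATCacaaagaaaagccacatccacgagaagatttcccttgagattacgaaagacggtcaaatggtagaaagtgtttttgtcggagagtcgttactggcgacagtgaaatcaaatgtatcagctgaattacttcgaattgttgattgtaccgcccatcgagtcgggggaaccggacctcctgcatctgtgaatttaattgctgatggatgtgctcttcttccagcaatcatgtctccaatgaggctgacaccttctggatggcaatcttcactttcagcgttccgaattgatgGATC
*cutl-23* (III:5773473-5773669, plus strand, exons with introns): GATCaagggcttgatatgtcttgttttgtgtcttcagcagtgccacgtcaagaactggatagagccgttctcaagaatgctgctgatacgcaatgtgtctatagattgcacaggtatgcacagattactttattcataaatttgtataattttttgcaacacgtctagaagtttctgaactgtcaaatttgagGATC

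Of these fragments, 84.0% of the bases are coding in *cut-3*, 100% in *cutl-27* and 57.4% in *cutl-23*. As the drivers differ in GATA sites, the 250 bases upstream of the annotated start of each member were searched for TGATA and for AGATA on both strands. The words share GATA and differ in the letter before it, so that on one strand a site counts for 1 of them. TGATA was found upstream of 12 of 35 members (34.3%), against 48.0% of all 19983 windows, and AGATA upstream of 14 of 35 (40.0%), against 40.2%. The windows of *cut-3* and *cut-2*, the *cut* genes highest in hypodermis at L2, and of *cutl-27* are given below, with TGATA or AGATA, read on either strand, in capitals.
*cut-3* (II:8446832-8447081, minus strand): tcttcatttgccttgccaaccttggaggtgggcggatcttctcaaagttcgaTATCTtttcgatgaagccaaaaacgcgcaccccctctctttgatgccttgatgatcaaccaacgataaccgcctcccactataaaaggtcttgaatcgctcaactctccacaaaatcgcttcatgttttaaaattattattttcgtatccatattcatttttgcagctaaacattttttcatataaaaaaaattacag
*cut-2* (V:13414699-13414948, plus strand): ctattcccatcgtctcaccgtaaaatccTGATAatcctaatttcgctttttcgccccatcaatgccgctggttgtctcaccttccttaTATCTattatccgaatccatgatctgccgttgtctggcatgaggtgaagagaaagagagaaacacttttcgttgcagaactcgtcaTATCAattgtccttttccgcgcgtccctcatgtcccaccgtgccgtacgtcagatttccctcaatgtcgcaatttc
*cutl-27* (IV:11878299-11878548, plus strand): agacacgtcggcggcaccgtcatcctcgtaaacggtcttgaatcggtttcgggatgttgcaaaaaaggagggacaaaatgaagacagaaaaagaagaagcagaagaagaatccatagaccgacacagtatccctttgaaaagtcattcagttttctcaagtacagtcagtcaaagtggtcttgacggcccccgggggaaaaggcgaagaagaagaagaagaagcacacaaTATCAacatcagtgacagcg

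The window of *cut-2* held 2 TGATA and 1 AGATA, that of *cut-3* 1 AGATA and no TGATA, and that of *cutl-27* 1 TGATA and no AGATA. No word was therefore shared by all 3 windows.

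The profiles were first checked against genes that mark each cell type. All 8 seam markers, among them the transcription factor genes *elt-1* and *ceh-16*, scored above 0 in all 4 seam cell profiles, with sums over the list of 18.5 and 14.1 at L4 and 11.5 and 13 at L2, whereas the sums in hypodermis were between -1.06 and -0.70. Of the 6 hypodermal markers, all were above 0 in the 4 hypodermal profiles, and 4 to 6 of them in the seam cell profiles, with sums from 4.80 to 15.4 in seam cells and from 9.83 to 15.8 in hypodermis. The collagen genes *dpy-7*, *rol-6* and *sqt-3* were above 0 in every profile, whereas *osm-7* averaged 0.46 and *wrt-8* 0.21 in seam cells at L4, against 1.38 and 1.22 in hypodermis at L4. Body wall muscle markers stood apart in seam cells at L2, where all 5 scored above 0 in replicate 2 (sum 7.15) and 3 of 5 in replicate 1 (sum 1.16), while their sums were between -6.21 and 0.098 in the other groups. Replicates correlated across the 19983 genes, which are not independent, with r = 0.72 in seam cells at L4, 0.31 in seam cells at L2, 0.77 in hypodermis at L4 and 0.80 in hypodermis at L2. For the seam L4 group, replicate 1 over control 1 followed the ratio of control 2 to control 1 (r = 0.996 across 269057 fragments) rather than replicate 1 over control 2 (r = -0.35). That profile was left out, and the group rests on replicate 1 over control 2 and replicate 2 over control 1.

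Most cuticlin genes, like most genes, scored near or below the control in both cell types. Scores of exactly 0 made up 12.1% to 39.6% of the members' fragments by profile, and 14.8% to 44.6% of all fragments. Without read counts, a fragment with few or no reads cannot be told from one at the level of the control. Of the 35 members, 27 had group means below 0.5 in all 4 groups, and 20 had means within 0.5 of 0 in all of them. In seam cells at L4, 65.7% of members had a mean within 0.5 of 0, against 80.9% of all genes. In each other group 82.9% of members did, against 85.9% (seam cells at L2), 84.1% (hypodermis at L4) and 78.9% (hypodermis at L2). Median occupancy of the members was -0.01 in seam cells at L4, 0.10 in seam cells at L2, -0.07 in hypodermis at L4 and -0.03 in hypodermis at L2. The medians over all 19983 genes were -0.01, 0.06, -0.02 and -0.02 in the same groups. By the median, the members thus lay near the level of the genome. The members are longer than most genes, with a median of 3952 bp and 12 GATC fragments, against 2026 bp and 7 fragments for all genes. They are spread over all chromosomes, with 9 on II, 7 on I, 5 each on IV, V and X, and 4 on III, and 12 of them overlap another protein-coding gene.

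**Figure D1:**
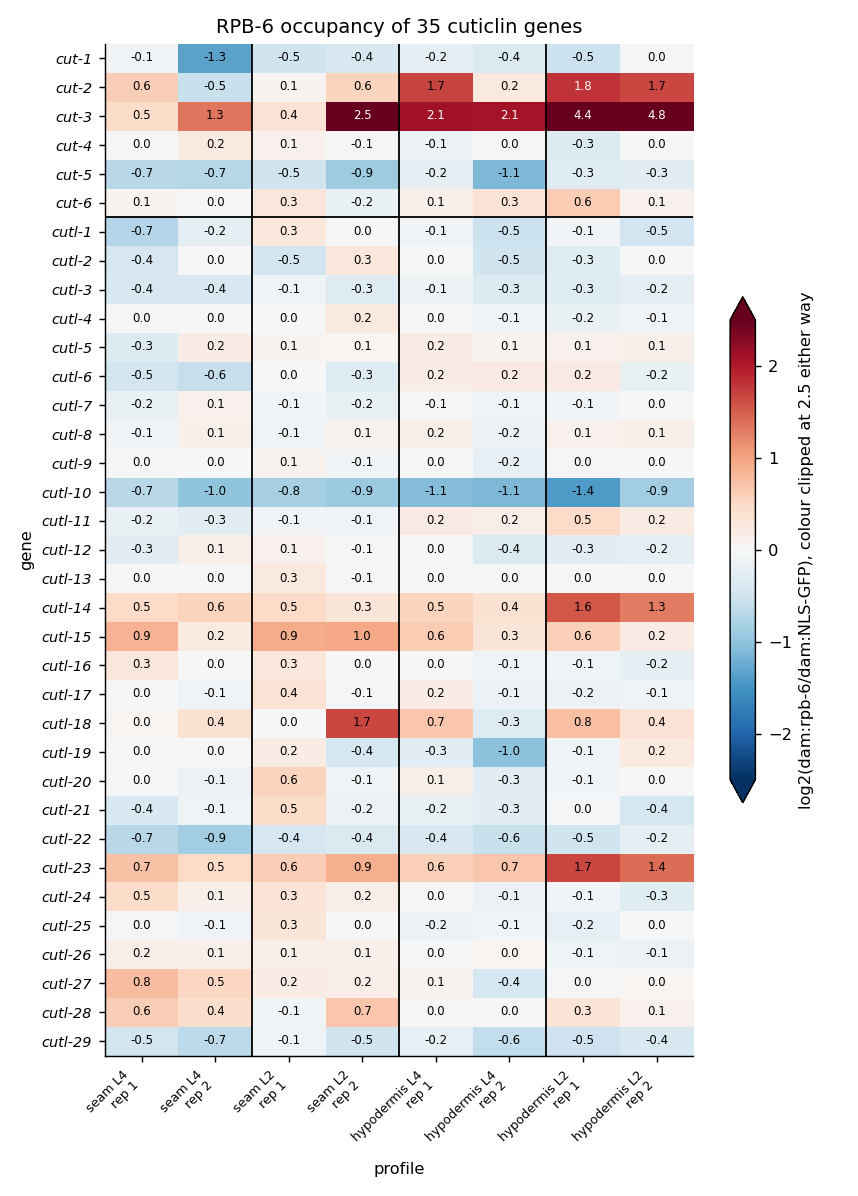
Occupancy, as log2(dam:rpb-6/dam:NLS-GFP), of the 35 cuticlin and cuticlin-like genes (rows) in the 2 profiles of each group (columns, seam cells left of hypodermis and L4 left of L2), with each value printed in its cell and the colour clipped at 2.5 on either side of 0. Most rows are near 0 throughout, *cut-3* is the strongest in hypodermis at L2 with 4.35 and 4.83, and *cutl-10* is below 0 in every column.

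By a score of 1 or more or by adjusted p, few members were occupied in any group. Hypodermis at L2 had the most by both rules, as it did among all genes. A score of 1 or more in both profiles was reached by 0 of 35 members in seam cells at L4 (3.78% of all genes), by 0 in seam cells at L2 (1.48%), by 1 in hypodermis at L4 (3.16%) and by 4 in hypodermis at L2 (5.3%). By limma, with the mean of a group tested against 0 and Benjamini-Hochberg adjustment over all genes, no member was called above the control in seam cells at L4 (2.56% of all genes called), in seam cells at L2 (0.2%) or in hypodermis at L4 (1.49%), and 3 were called in hypodermis at L2 (5.33%). At an unadjusted p under 0.05, limma gave 7 members above the control in seam cells at L4 (11.9% of all genes), 5 in seam cells at L2 (9.71%), 3 in hypodermis at L4 (10.1%) and 5 in hypodermis at L2 (15.2%). Calls below the control numbered 1 in seam cells at L4 (0.771% of all genes), 0 in seam cells at L2 (0.045%), 1 in hypodermis at L4 (0.145%) and 1 in hypodermis at L2 (1.13%). At an unadjusted p under 0.05, limma gave 7 below it in seam cells at L4 (8.91%), 4 in seam cells at L2 (3.47%), 6 in hypodermis at L4 (6.43%) and 5 in hypodermis at L2 (8.04%). The 3 calls above the control were *cut-3*, *cutl-14* and *cutl-23*, and with *cut-2* these were also the 4 members at 1 or more in both profiles of hypodermis at L2. When either replicate of hypodermis at L2 was left out, none of these 3 calls passed (limma adjusted p from 0.074 to 0.15), and none of the 19983 genes was called above the control in that group. With 2 profiles per group, an exact permutation test could not give a p below 0.333.

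Among the cuticlins known from alae, only *cut-3* stood above the control in any group, by either rule. *cut-3* (WBGene00009041, II:8445169-8446831, minus strand, 8 fragments), whose protein is known from the alae of L1 larvae, scored 0.46 and 1.34 in seam cells at L4 and 0.36 and 2.51 in seam cells at L2. In hypodermis it scored 2.10 and 2.07 at L4 and 4.35 and 4.83 at L2. Both profiles of hypodermis at L2 were therefore above all others, and the seam cell replicates were far apart at L2. The group means were 0.90 ± 0.62 in seam cells at L4, 1.44 ± 1.52 in seam cells at L2 and 2.09 ± 0.01 in hypodermis at L4 (SD, n = 2), none of which passed the test (limma adjusted p = 0.41, 0.33 and 0.13), and 4.59 ± 0.34 in hypodermis at L2, which did (limma adjusted p = 0.017). With averaged controls the mean in hypodermis at L4 also passed (limma adjusted p = 0.037). The higher of the seam cell L2 values came from the replicate in which all 5 muscle markers were above 0, and the part of those cells in it was not tested.

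The highest scores of *cut-3* lay towards its 3′ end. The fragment printed above scored 0.52 and 3.06 in seam cells at L4, 0.45 and 3.98 in seam cells at L2, 3.44 and 3.05 in hypodermis at L4 and 6.85 and 6.88 in hypodermis at L2. With the gene divided into 3 equal parts, occupancy in hypodermis at L2 was 2.86 and 2.88 over the 5′ part, 4.08 and 5.67 over the middle and 6.12 and 5.93 over the 3′ part. The signal in that group thus increased along the gene in both replicates. At its 3′ end *cut-3* overlaps *evl-20*, a gene on the other strand for a small GTPase, by a few bases, and DamID scores carry no strand. *evl-20* scored 2.68 and 2.22 in hypodermis at L2, less than *cut-3* in both replicates. Without the fragment shared with it, *cut-3* scored 4.25 and 4.88 there, so that its level did not rest on the shared fragment.

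**Figure D2:**
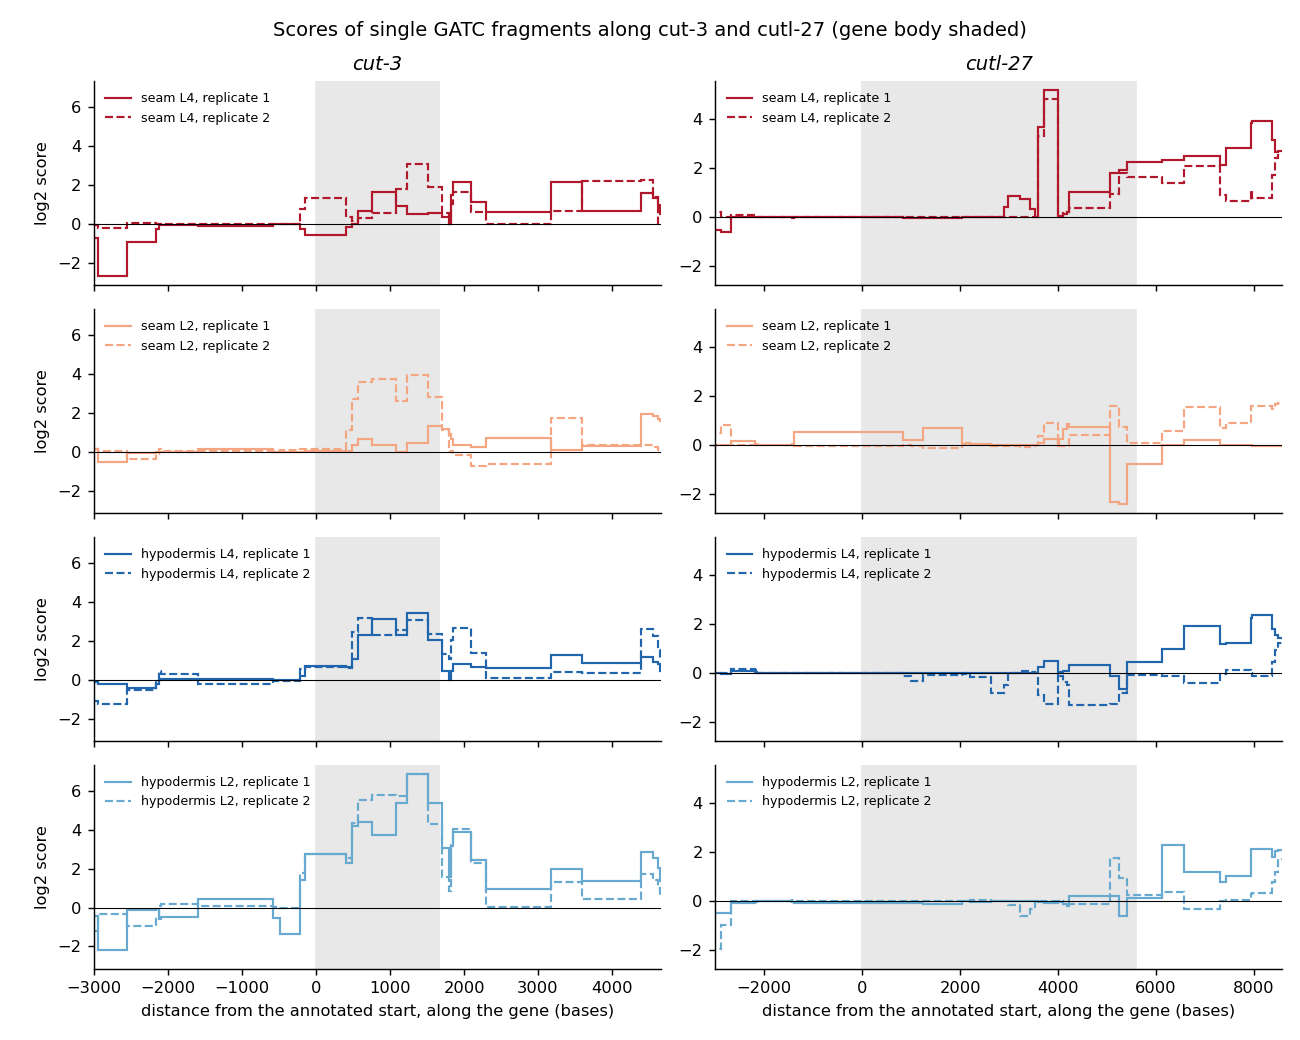
Scores, as log2(dam:rpb-6/dam:NLS-GFP), of single GATC fragments (vertical axis) along cut-3 (left) and cutl-27 (right) against the distance in bases from the annotated start (horizontal axis), for seam cells at L4, seam cells at L2, hypodermis at L4 and hypodermis at L2 from top to bottom, with replicate 1 as a solid and replicate 2 as a dashed line and the gene body shaded. In hypodermis at L2 both replicates of *cut-3* peak near 6.9 inside the gene, and in seam cells at L4 both replicates of *cutl-27* have a narrow peak, at 5.18 and 4.81, before the raised signal that runs on towards *let-653*.

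The other alae cuticlins were near or below the control. *cut-1* (II:11269122-11271660, 14 fragments), the founding member of the family and a component of the dauer cuticle, scored -0.06 and -1.34 in seam cells at L4, -0.49 and -0.40 in seam cells at L2, -0.24 and -0.35 in hypodermis at L4 and -0.53 and -0.04 in hypodermis at L2. *cut-5* (X:10333858-10338200, 16 fragments), known from the alae of L1 and dauer larvae and overlapping *idpa-3*, scored -0.69 and -0.71, -0.50 and -0.89, -0.25 and -1.12, and -0.31 and -0.27 in the same order. Both were thus below 0 in all 8 profiles, yet neither passed the test in any group (lowest limma adjusted p of *cut-1* 0.28 and of *cut-5* 0.15, both in seam cells at L4). *cut-6* (III:10911460-10916665, 9 fragments), needed for dauer alae, scored 0.06 and 0.01 in seam cells at L4, 0.28 and -0.17 in seam cells at L2, 0.13 and 0.35 in hypodermis at L4 and 0.64 and 0.12 in hypodermis at L2, close to 0 in seam cells and somewhat above it in hypodermis without passing the test (limma adjusted p = 0.26 or more). The cell types overlapped in *cut-1* at both stages and in *cut-5* at L4. At L2 both seam cell profiles of *cut-5* lay below both hypodermal ones. With replicate 2 over control 1 at L2, it was at -0.41 in seam cells and -0.66 in hypodermis. In seam cells at L4, the 4 alae cuticlins had a median of -0.33 and none was called. The -1.34 of *cut-1* there is replicate 2 over control 1, and replicate 2 over control 2 gave -0.02. That median therefore depends on the control used.

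*cut-2* (V:13414949-13416064, plus strand), which encodes a cuticlin of another kind, without a ZP domain, whose protein can be cross-linked through tyrosines in vitro, followed *cut-3* in hypodermis. It scored 0.61 and -0.55 in seam cells at L4, 0.07 and 0.56 in seam cells at L2, 1.68 and 0.24 in hypodermis at L4 and 1.80 and 1.68 in hypodermis at L2. Both profiles of hypodermis at L2 were high, whereas those of hypodermis at L4 were far apart. Its mean in hypodermis at L2 was 1.74 ± 0.08 (SD, n = 2) and did not pass the test (limma adjusted p = 0.081), although it did with crossed or averaged controls or unweighted fragments (limma adjusted p from 0.025 to 0.045). *cut-2* is covered by 2 fragments only, of which 1 extends beyond its 3′ end, and the fragment that lies within the gene and its upstream region scored 1.80 and 1.49 in hypodermis at L2. *cut-4*, the remaining *cut* gene, was within 0.5 of 0 in all groups.

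Among the *cutl* genes, *cutl-14* and *cutl-23* were above the control in all 8 profiles and most so in hypodermis at L2. *cutl-23* (III:5770185-5774703, plus strand, 20 fragments) scored 0.74 and 0.49 in seam cells at L4, 0.62 and 0.91 in seam cells at L2, 0.59 and 0.70 in hypodermis at L4 and 1.67 and 1.4 in hypodermis at L2. *cutl-14* (chromosome I, 9 fragments) scored 0.48 and 0.55, 0.47 and 0.30, 0.55 and 0.37, and 1.55 and 1.3 in the same order. In both genes the profiles of hypodermis at L2 lay above all 6 others, which were between 0.30 and 0.91. The means in hypodermis at L2 were 1.53 ± 0.19 for *cutl-23* and 1.43 ± 0.18 for *cutl-14* (SD, n = 2), each with a limma adjusted p of 0.0092. In the other groups neither passed the test, with limma adjusted p values of 0.057, 0.090 and 0.069 for *cutl-23* and 0.053, 0.18 and 0.084 for *cutl-14* in seam cells at L4, seam cells at L2 and hypodermis at L4. With averaged controls or unweighted fragments *cutl-23* passed in those groups too (limma adjusted p from 0.023 to 0.050), and so did *cutl-14* in seam cells at L4 under both settings and, with averaged controls, in hypodermis at L4 (limma adjusted p = 0.012). Without the fragments shared with another gene, hypodermis at L2 was at 1.71 and 1.25 for *cutl-23* and at 1.55 and 1.32 for *cutl-14*. Within *cutl-23*, the fragment printed above scored 1.05 and 1.31 in seam cells at L4, 0.72 and 2.77 in seam cells at L2, 1.34 and 0.94 in hypodermis at L4 and 4.03 and 2.64 in hypodermis at L2. *cutl-15* (II:8942668-8947688) was the other *cutl* gene above 0 in all 8 profiles, at 0.87 and 0.22 in seam cells at L4, 0.94 and 0.97 in seam cells at L2, 0.64 and 0.29 in hypodermis at L4 and 0.59 and 0.21 in hypodermis at L2, with no call in any group. With *cut-3*, 4 of 35 members were above 0 in all 8 profiles (11.4%), near the share among all genes (9.96%). In seam cells at L2, replicate 1 over control 2, which is not among these profiles, gave -0.03 for *cutl-14*.

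*cutl-27* and *cutl-28*, both on chromosome IV, had their highest group means in seam cells at L4. *cutl-27* (IV:11878549-11884134, plus strand, 23 fragments) scored 0.77 and 0.53 in seam cells at L4, 0.18 and 0.17 in seam cells at L2, 0.07 and -0.44 in hypodermis at L4 and -0.02 and 0.04 in hypodermis at L2. Both seam cell L4 profiles were thus above the 6 others, yet the mean of 0.65 ± 0.17 (SD, n = 2) did not pass the test (limma adjusted p = 0.070). It did pass without either replicate of hypodermis at L4 (limma adjusted p = 0.049), with averaged controls (0.011), with unweighted fragments (0.047) and after median centring (0.048). The profile left out of this group gave 0.09, and with the profiles as deposited the mean was 0.27. Its signal was narrow. The fragment printed above scored 5.18 and 4.81 in seam cells at L4, against 0.24 and 0.93 in seam cells at L2, 0.50 and -1.25 in hypodermis at L4 and -0.06 and 0.00 in hypodermis at L2. The fragment before it scored 3.66 and 3.33 in seam cells at L4 and at most 0.39 elsewhere. These fragments were chosen as the highest of the gene and carry no test.

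Downstream of *cutl-27*, beginning 1478 bp from its end, lies *let-653*, which encodes a ZP protein of the transient matrix that lines the outer surface of the epidermis before a cuticle is made. *let-653* scored 2.56 and 2.03 in seam cells at L4, 0.21 and 1.44 in seam cells at L2, 1.75 and 0.77 in hypodermis at L4 and 1.37 and 0.61 in hypodermis at L2. The fragments at the 3′ end of *cutl-27* joined the raised signal of *let-653*, and the last of them, which runs past the end of the gene, scored 2.24 and 1.65 in seam cells at L4. Without its only fragment that touches another gene, *cutl-27* scored 0.90 and 0.62 in seam cells at L4, above the values with it. The fragment left out was therefore not this high-scoring last fragment, and the level without the last fragment was not tested. With the gene divided into 3 equal parts, occupancy in seam cells at L4 was -0.01 and 0 over the 5′ part. It was 0.52 and 0.27 over the middle and 1.80 and 1.31 over the 3′ part. *cutl-28* (IV:684497-688340) scored 0.62 and 0.44 in seam cells at L4, -0.07 and 0.69 in seam cells at L2, 0.03 and -0.02 in hypodermis at L4 and 0.35 and 0.11 in hypodermis at L2. In these profiles seam cells at L4 overlapped seam cells at L2 and lay above hypodermis at both stages (limma adjusted p = 0.19 for the mean in seam cells at L4). With replicate 2 over control 2, seam cells at L4 were at 0.11, no longer above hypodermis at L2.

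**Figure D3:**
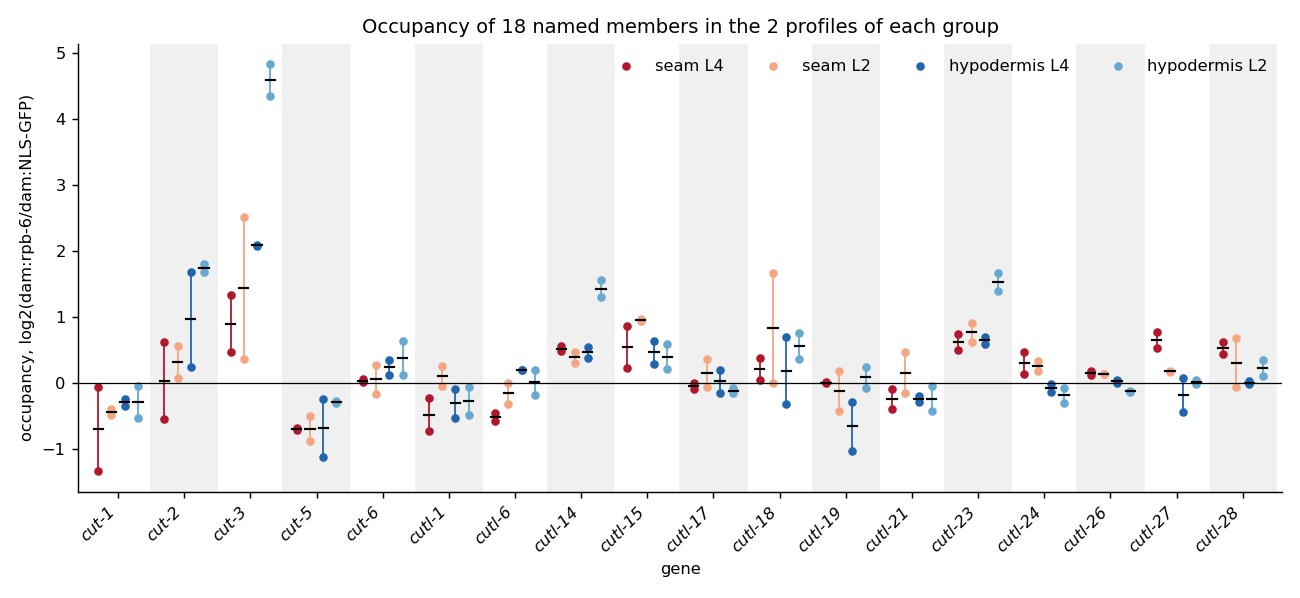
Occupancy, as log2(dam:rpb-6/dam:NLS-GFP), of the 18 named members in the 2 profiles of each group, with points for replicates, a line joining them and a black bar for their mean. *cut-3*, *cut-2*, *cutl-14* and *cutl-23* are highest in hypodermis at L2, *cutl-27* is highest in seam cells at L4, at 0.77 and 0.53, and most other members lie around 0.

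Some members were below the control in all 8 profiles. These were *cut-1*, *cut-5*, *cutl-3*, *cutl-10*, *cutl-22* and *cutl-29*, 6 of 35 members (17.1%), against 5.76% of all genes, and the *cutl* genes among them are named here because of their values. The count depends on the pairing with controls. With replicate 1 over control 2, hypodermis at L2 was at 0.18 for *cut-5* and 0.09 for *cutl-3*. *cutl-10* (chromosome I) scored -0.69 and -1.0 in seam cells at L4, -0.83 and -0.93 in seam cells at L2, -1.08 and -1.11 in hypodermis at L4 and -1.42 and -0.87 in hypodermis at L2. In hypodermis it was called below the control at L4 (mean -1.10, limma adjusted p = 0.044) and at L2 (mean -1.15, limma adjusted p = 0.021). With the replicate numbers as a block, the limma adjusted p in hypodermis at L4 was 0.091. *cutl-22* (V:1141733-1146501) was called below the control in seam cells at L4, at -0.70 and -0.87 (mean -0.79, limma adjusted p = 0.024, and 0.059 with the replicate block). *cutl-29* scored -0.46 and -0.65 in seam cells at L4, -0.10 and -0.50 in seam cells at L2, -0.21 and -0.61 in hypodermis at L4 and -0.51 and -0.39 in hypodermis at L2. *cutl-3* scored -0.40 and -0.41, -0.11 and -0.32, -0.12 and -0.35, and -0.32 and -0.22 in the same order, and neither of these genes was called. A score below 0 means a lower signal of *dam:rpb-6* relative to the control fusion after normalisation, not a measured amount of methylation. The control fusion methylates accessible chromatin, and its part in these scores was not tested.

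The comparison of seam cells with hypodermis asks which cuticlins are occupied more in the alae-forming cells than in the rest of the epidermis. No member passed the test at L4 or at L2, and neither did any of the 19983 genes in either direction (0% called higher and 0% lower by limma at either stage). At an unadjusted p under 0.05, limma gave 1 member higher and 2 lower in seam cells at L4 (2.57% and 2.25% of all genes), and 2 higher and 4 lower in seam cells at L2 (4.88% and 5.49% of all genes). At L4 the largest differences in favour of seam cells were those of *cutl-27* (0.83, SE 0.19), *cutl-19* (0.66, SE 0.32) and *cutl-28* (0.53, SE 0.26), with limma adjusted p values from 0.71 to 1. *cutl-19* (III:5215949-5217611) scored 0.01 and -0.00 in seam cells at L4, 0.18 and -0.43 in seam cells at L2, -0.28 and -1.03 in hypodermis at L4 and -0.07 and 0.24 in hypodermis at L2. Its difference at L4 thus came from values below 0 in hypodermis, not from values above 0 in seam cells. The largest in favour of hypodermis at L4 were those of *cut-3* (-1.19, SE 0.73), *cut-2* (-0.93, SE 0.60) and *cutl-6* (-0.71, SE 0.17). Of these, only *cutl-6* had an unadjusted p under 0.05 by limma. The other member below that p in this direction was *cutl-11*, named here for its p.

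At L2 the largest differences towards hypodermis were again those of *cut-3* and *cut-2*, followed by *cutl-14*. *cut-3* differed by -3.15 (SE 0.73, limma adjusted p = 0.30), *cut-2* by -1.43 (SE 0.60, limma adjusted p = 0.51) and *cutl-14* by -1.04 (SE 0.13, limma adjusted p = 0.15). In all 3 genes both seam cell profiles lay below both hypodermal profiles at L2. With averaged controls, where the profiles of a group share their controls, *cutl-14* passed the test (limma adjusted p = 0.013). Towards seam cells, *cutl-15* differed by 0.55, *cutl-24* by 0.44 and *cutl-21* by 0.40 at L2, with limma adjusted p values of 0.42 or more. *cutl-24* (IV:165077-169980) scored 0.46 and 0.13 in seam cells at L4 and 0.33 and 0.17 in seam cells at L2, and -0.01 and -0.14 in hypodermis at L4 and -0.07 and -0.30 in hypodermis at L2. Its seam cell values were thus above its hypodermal values at both stages, by less than 0.5 on average. *cutl-21* (X:1004337-1009422) scored -0.39 and -0.09 in seam cells at L4, 0.47 and -0.15 in seam cells at L2, -0.19 and -0.29 in hypodermis at L4 and -0.05 and -0.43 in hypodermis at L2, so that its seam cell values at L2 lay on both sides of 0.

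**Figure D4:**
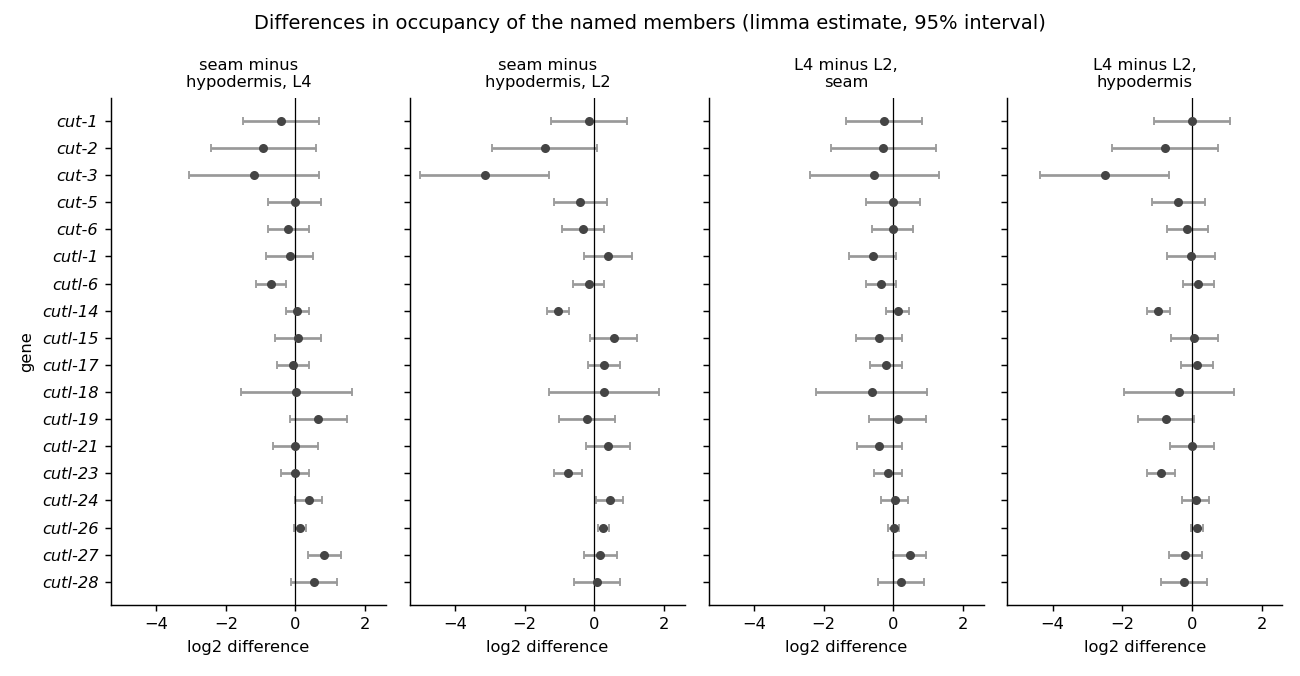
Differences in occupancy on the log2 scale for the 18 named members (rows), as limma estimates with unadjusted 95% intervals, for seam cells minus hypodermis at L4 and at L2 and for L4 minus L2 in seam cells and in hypodermis. The intervals of *cut-3*, *cutl-14* and *cutl-23* lie below 0 for seam cells minus hypodermis at L2 and for L4 minus L2 in hypodermis. For seam cells minus hypodermis, those of *cutl-24* and *cutl-26* lie above 0 at L2. At L4 that of *cutl-27* lies above 0 and that of *cutl-6* below 0. No difference passed the test after adjustment.

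The comparison of L4 with L2 asks whether cuticlins score higher at the stage that ends with the adult moult or earlier. The paper states that DamID follows changes in expression poorly, since methylation kept from before is hard to exclude. A score at L4 may therefore hold marks made earlier, and their share was not tested. No member and none of the 19983 genes passed the test in seam cells or in hypodermis (0% in each direction by limma), where at an unadjusted p under 0.05 limma gave 0 members higher and 1 lower at L4 in seam cells (3.31% and 5.5% of all genes) and 0 higher and 3 lower at L4 in hypodermis (0.931% and 3.45%). In hypodermis the 3 members were *cut-3* (-2.51, SE 0.73), *cutl-14* (-0.97, SE 0.13) and *cutl-23* (-0.89, SE 0.16), with limma adjusted p values of 0.95, 0.42 and 0.56. Both L4 profiles of each lay below both of its L2 profiles. The largest differences in the other direction in hypodermis were small, at 0.19 for *cutl-6*, 0.15 for *cutl-26* and 0.14 for *cutl-17*. With 1 replicate left out, *cutl-17* turned to -0.031 without L4 replicate 1 and *cutl-6* to -0.00626 without L2 replicate 2.

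In seam cells, *cutl-27* had the largest excess at L4 over L2 (0.47, SE 0.19), followed by *cutl-28* (0.23, SE 0.26) and *cutl-19* (0.13, SE 0.32), and *cutl-18* (-0.62, SE 0.63), *cutl-1* (-0.59, SE 0.27) and *cut-3* (-0.54, SE 0.73) the largest deficits, with limma adjusted p values from 0.57 to 0.92. The member lower at L4 in seam cells at an unadjusted p under 0.05 by limma was none of these but *cutl-22* (-0.40, SE 0.13). The value of *cutl-18* rested on replicate 2 of seam cells at L2. *cutl-18* (V:11313362-11316901) scored 0.04 and 0.38 in seam cells at L4 and -0.00 and 1.66 in seam cells at L2, and 0.69 and -0.32 in hypodermis at L4 and 0.75 and 0.36 in hypodermis at L2. It overlaps *T03F7.7*, which scored 2.96 and 2.57 in hypodermis at L2. Without seam cell L2 replicate 2, the profile with the raised muscle markers, the differences of *cutl-18* and *cut-3* were 0.22 and 0.53, in the other direction. Those of *cutl-28* (-0.15 without replicate 1) and *cutl-19* (-0.18 without replicate 2) also turned with a seam cell L2 replicate left out, and that of *cutl-28* with the profiles as deposited (-0.065). Whether the stage difference itself differed between the cell types was tested as an interaction. No member and no gene passed (0% in each direction by limma), with 2 members higher and 0 lower at an unadjusted p under 0.05 (3.2% and 2.69% of all genes). These were *cutl-14* (1.10, SE 0.18) and *cutl-23* (0.74, SE 0.23), with limma adjusted p values of 0.73 and 0.80, and *cutl-14* passed with averaged controls.

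The remaining members with a value among the largest differences were not called in any group. *cutl-6* (chromosome I) scored -0.45 and -0.57 in seam cells at L4, 0.00 and -0.32 in seam cells at L2, 0.19 and 0.20 in hypodermis at L4 and 0.20 and -0.18 in hypodermis at L2, so that its L4 profiles were below 0 in seam cells and above 0 in hypodermis. *cutl-1* (V:13403961-13406114) scored -0.73 and -0.23, 0.26 and -0.04, -0.09 and -0.54, and -0.07 and -0.49 in the same order of groups, with overlap between cell types at L4. *cutl-26* (IV:698699-707735), the longest member, scored 0.17 and 0.12, 0.14 and 0.13, 0.00 and 0.05, and -0.12 and -0.14 in that order, which was above hypodermis in both seam cell groups by at most 0.26 on average. *cutl-17* (IV:9449125-9457500) stayed between -0.15 and 0.36. No role is given here for these *cutl* genes, which are named for their likeness to cuticlins. The 13 members not named with their values, *cut-4* among them, lay between -0.49 and 0.55 in all profiles and between -0.27 and 0.34 as group means.

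Other genes of the apical matrix of the epidermis were read beside the cuticlins. Among 6 other ZP domain genes, *noah-1*, *noah-2*, *fbn-1* and *let-653*, which act in the matrix that precedes the cuticle, had scores of 1 or more in both profiles of seam cells at L4, and *dyf-7*, known from sensory dendrites, and *ram-5*, known from male rays, did not. The median of these 6 genes was 2.47 in seam cells at L4, 0.73 in seam cells at L2, 1.61 in hypodermis at L4 and 1.17 in hypodermis at L2. In seam cells at L4, 3 of 6 were called above the control (*noah-1*, *noah-2* and *fbn-1*), in seam cells at L2 0, and in hypodermis 1 at each stage (*noah-1*). *noah-1* scored 4.01 and 3.18 in seam cells at L4, against 0.91 and 1.60 in seam cells at L2, and 3.19 and 2.94 in hypodermis at L4, against 2.24 and 1.65 in hypodermis at L2. In this list the seam cells at L4 were the highest group, whereas the cuticlin genes in the same profiles had no call above the control.

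The 6 apical matrix genes without a ZP domain, which encode lipocalins (*lpr-1*, *lpr-3*), leucine-rich repeat proteins (*let-4*, *egg-6*, *sym-1*) and DEX-1, a protein needed in dauer alae, had medians of 2.10 in seam cells at L4, 0.70 in seam cells at L2, 1.01 in hypodermis at L4 and 1.11 in hypodermis at L2. In seam cells at L4, 3 of 6 were called above the control (*lpr-3*, *sym-1* and *egg-6*), and in hypodermis at L2 1 (*egg-6*). *dex-1* scored 0.57 and 0.20 in seam cells at L4 and 0.61 and 0.45 in seam cells at L2, and 0.12 and 0.00 in hypodermis at L4 and 0.06 and 0.03 in hypodermis at L2, above the hypodermal values in both replicates at each stage. Genes for the cross-linking of tyrosines had medians of 0.86 in seam cells at L4, 0.59 in seam cells at L2, 0.81 in hypodermis at L4 and 1.12 in hypodermis at L2. Of these 5, limma called 1 in seam cells at L4 (*doxa-1*) and 3 in hypodermis at L2 (*mlt-7*, a peroxidase gene, *tsp-15* and *doxa-1*), and *bli-3*, the dual oxidase gene that they act with, scored between 0.20 and 1.16 in all profiles without a call. No gene of these 3 lists passed the test between cell types or stages.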

How the data were processed

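The cuticlin genes and the gene lists were chosen with earlier results of these data known. The authors ran damidseq_pipeline, which called Bowtie2 2.3.4 and SAMtools 1.9, on single-end reads and the WBcel235 assembly, and normalised each ratio in it. The deposited log2 scores give each *dam:rpb-6* replicate over each control, 16 pairwise profiles, without read counts, so that depth and counting error are unknown. The authors' averaged profiles, and their gene lists, which hold a mean score, a number of fragments and an FDR, were not used here.

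Gene occupancy was computed in Python 3.11.15 with pandas 2.3.3 over gene bodies of the Ensembl release 115 annotation. Group means against 0, differences and the interaction were tested with limma 3.58.1 (R 4.3.3; 4 group means, residual df 4, prior df 1.24) at an adjusted p under 0.05, and the code was tested on simulated data. L2 and L4 animals of a replicate number came from 1 population. Their deviations from group means correlated with r = -0.12 in seam cells and 0.23 in hypodermis. With controls averaged, r was -0.209 in seam cells and 0.465 in hypodermis. Named are the 4 alae cuticlins, the 5 highest members per group and the 3 largest differences each way per contrast, others being marked as chosen by value. Alternatives covered controls, profiles, weighting, fragment number, centring, thresholds, the replicate block and each replicate. Sequences are RefSeq, WBcel235.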

Additional observations from a re-analysis of the deposited data

How the results depend on the processing

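The counts of members called above the control depended on how the controls were combined. With controls averaged, which pools shared samples, limma called 5 members in seam cells at L4 (7.42% of all genes), 1 in seam cells at L2 (2.45%), 3 in hypodermis at L4 (6.51%) and 6 at L2 (11.7%). It then called 1 member lower in seam cells than in hypodermis at L2 (2.52% of all genes) and 1 for the interaction (0.43%), *cutl-14* in both. Unweighted fragments gave 3, 1, 1 and 5 in the same order of groups (3.41%, 0.545%, 2.39% and 6.52% of all genes), crossed controls 5 in hypodermis at L2 (6.46%) and median centring 2 in seam cells at L4 (3.48%). Leaving out a replicate gave 0 to 1 members in seam cells at L4 and 0 to 3 in hypodermis at L2, where no call was left without either replicate of that group, the other being assumed to vary like the other groups. A threshold of 0.5 in both profiles gave 1 member in seam cells at L4 (8.16% of all genes), 2 in seam cells at L2 (4.47%) and 2 in hypodermis at L4 (7.4%), and one of 1.5 gave 2 in hypodermis at L2 (2.63%). Unweighted fragments gave 1 at 1 or more in seam cells at L2 (1.67%). With 1 profile only, members at 1 or more were 0 to 1 in seam cells at L4, 0 to 2 at L2 and, in hypodermis at L4, 1 to 2. The counts with a replicate left out or with 1 profile are given without shares of all genes. Nothing about the members is read from them. With the replicate number as a block, 3 members were called above the control in hypodermis at L2 (3.1% of all genes) and 0 in the other groups (1.08%, 0% and 0.45%), and besides the calls of *cutl-10* and *cutl-22* below the control it changed no call.

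Of 656 values of named members under alternatives, 625 kept their direction and side of the threshold, 17 came to pass the test, 6 no longer passed it and 8 turned. With seam cell L2 replicate 1 or 2 left out, *cutl-18* was at 1.66 or -0.00401 in that group, and L4 minus L2 in seam cells was -1.45 or 0.22 for *cutl-18*, -1.61 or 0.53 for *cut-3* and 0.44 or -0.18 for *cutl-19*. For *cutl-28* that difference was -0.15 without seam cell L2 replicate 1, 0.60 without replicate 2 and -0.065 with the profiles as deposited. In hypodermis, L4 minus L2 was -0.031 or 0.31 for *cutl-17* without L4 replicate 1 or 2, and 0.38 or -0.00626 for *cutl-6* without L2 replicate 1 or 2. The cause of these changes was not tested. Depth limits cannot be given without read counts.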
